A study of Mus musculus with 55 samples.

Results

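The oxidative phosphorylation genes on these arrays were taken by symbol: every probe set whose gene symbol in the array annotation starts with Nduf, Sdh, Uqcr, Cox4, Cox5, Cox6, Cox7, Cox8 or Atp5, or is Cyc1 or Cycs, with the brightest probe set kept for each gene. This gave 60 genes, from 70 probe sets, of 6137 genes that had a probe set with a single symbol. A further 3 probe sets that carried a matching symbol beside others were left out. By respiratory complex, 22 genes belonged to complex I, 4 to complex II, 8 to complex III, 12 to complex IV and 13 to complex V, and Cycs encodes the electron carrier cytochrome c. No probe set carried a symbol of a gene of the mitochondrial genome, so all 60 are genes of the nucleus.

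Total RNA of mouse bone marrow cells, sorted into 5 B lineage populations, was measured on a first array set and a b set that carry different probe sets. Pre-BI cells were B220+ and c-kit+, large and small pre-BII cells were B220+ CD25+ and lacked surface immunoglobulin, immature B cells were B220 low with surface IgM, and mature B cells were B220 high with surface IgM. Pre-BI cells came from 6 preparations, numbered as sorts 1, 2, 3, 8, 9 and 10. The other populations had 5 preparations apiece: sorts 1, 2, 8, 9 and 10 for large pre-BII, sorts 1, 3, 8, 9 and 10 for small pre-BII, sorts 1, 2, 8, 9 and 11 for immature, and sorts 1, 3, 8, 9 and 11 for mature B cells. Neither strain, age nor any treatment is named in the labels, and nothing in them tells separate animals from repeated samples. The p-values therefore cover the spread among these preparations alone, which may be technical, and precision is limited by how few arrays there are.

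In oxidative phosphorylation, complexes I and II pass electrons from NADH and succinate to ubiquinone, complex III passes them on to cytochrome c, and complex IV, cytochrome c oxidase, passes them to oxygen. Complexes I, III and IV pump protons across the inner mitochondrial membrane, and complex V, the ATP synthase, uses their return to make ATP. Precursor B cells divide as large cells and then rest as small ones, and mature B cells before activation are small resting cells. The genes are spread over many chromosomes, and the factors NRF-1, GABP (an ETS factor), YY1 and ERR are known to act on many of them.

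Promoter sequences are shown for members that fell from pre-BI to mature B cells. Those shown were the ones with the core of the NRF-1 site in the 250 bases before the gene's start. Ndufa11, Ndufaf4 and Atp5l also held the core there but were not called lower, and are not shown. The RefSeq promoter table (build GRCm38.p6, 250 bases before and 50 after each start) held 49 of the 60 members by gene ID. In these 300 bases, on either strand, the NRF-1 core CGCATGCG was found in 9 of 49 members (18.4%), in 5 of the 15 that fell and had a promoter (33.3%), in 559 of 27025 genes (2.07%) and in 484 of 17492 protein-coding genes (2.77%). The ETS site CCGGAAG was found in 14 members (28.6%), in 5 of those 15 (33.3%) and in 9.93% of all and 12.9% of protein-coding genes. The YY1 site AAGATGGCG was found in 3 members (6.12%) against 1.64% of all genes, and the ERR site TCAAGGTCA in 1 (2.04%) against 0.466%. These are matches of letters and not measured binding, and none of the motifs overlaps another in the lines below. Capitals mark the NRF-1 core in each line, the ETS site as well in Atp5j and (as its complement CTTCCGG) in Cox6a1, and the YY1 site in Atp5j, all written 5′ to 3′ on the strand of the gene.
Atp5j, chr16:84834977-84835226, minus strand: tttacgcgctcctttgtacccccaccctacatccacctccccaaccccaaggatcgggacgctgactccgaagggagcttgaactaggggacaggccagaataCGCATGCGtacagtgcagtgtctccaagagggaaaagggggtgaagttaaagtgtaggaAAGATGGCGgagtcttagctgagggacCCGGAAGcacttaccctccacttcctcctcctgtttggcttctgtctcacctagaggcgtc
Atp5k, chr5:108434400-108434649, minus strand: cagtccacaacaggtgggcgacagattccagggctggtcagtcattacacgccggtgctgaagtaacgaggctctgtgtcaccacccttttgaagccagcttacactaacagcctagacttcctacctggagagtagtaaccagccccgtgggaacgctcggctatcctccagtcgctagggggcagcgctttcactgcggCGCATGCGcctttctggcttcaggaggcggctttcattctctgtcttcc
Cox6a1, chr5:115348959-115349208, minus strand: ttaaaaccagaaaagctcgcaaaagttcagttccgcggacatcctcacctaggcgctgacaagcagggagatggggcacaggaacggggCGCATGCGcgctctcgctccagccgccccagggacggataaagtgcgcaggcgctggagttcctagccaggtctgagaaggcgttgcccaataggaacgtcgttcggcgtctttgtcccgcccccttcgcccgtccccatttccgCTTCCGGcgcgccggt
Cycs, chr6:50566570-50566819, minus strand: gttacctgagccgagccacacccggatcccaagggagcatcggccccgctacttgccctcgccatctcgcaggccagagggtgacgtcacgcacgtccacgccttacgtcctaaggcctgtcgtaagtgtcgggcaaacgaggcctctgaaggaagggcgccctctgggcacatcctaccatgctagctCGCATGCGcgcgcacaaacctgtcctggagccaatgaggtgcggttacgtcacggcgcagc
The NRF-1 core began 147 bases before the start in Atp5j, 49 in Atp5k, 161 in Cox6a1 and 61 in Cycs. Another start listed for Atp5j had none of these motifs before it.

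Levels are normalised intensities, compared only within a probe set. Values under a noise limit, estimated from the negative values of each table (first set 251, b set 319), were raised to it before folds and log2 differences were taken. The p-values come from a fit with a lower floor, which also takes in differences under the noise limit, so the adjusted p with the floor at the noise limit is given where it ends a call. Before scaling, array medians were 63 to 283 (first set) and 16 to 112 (b set). One first-set array, whose title names mature B sort 1, was identical to the mature B array of sort 11, and the pair was counted once, under sort 11. An 18S ribosomal RNA control probe set read 3741 to 14192 on the 12 first-set arrays of sorts 1 to 3 and -452 to 28 on the 15 arrays of sorts 8 to 11. Every population has preparations in both ranges of sorts. Of the labelled cell types' markers, Cd79b averaged 4316 to 12800 in the 5 populations. Kit, which encodes c-kit, averaged 329 in pre-BI cells and lay at the limit elsewhere, and Pax5 exceeded the limit in only 1 preparation, of pre-BI cells. Il2ra, which encodes the CD25 of the pre-BII gates, lay at the limit in all 5 large pre-BII preparations and exceeded it in 1 of 5 of small pre-BII cells.

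Most respiratory chain transcripts were highest in the early precursors and lowest in mature B cells. A mean level over all preparations above the noise limit was found for 47 of the 60 genes: 17 of 22 in complex I, 2 of 4 in complex II, 7 of 8 in complex III, Cycs, 10 of 12 in complex IV and 10 of 13 in complex V. For these 47 the highest population mean was that of pre-BI cells in 21 (Sdhaf1 through a single value), large pre-BII cells in 19 and small pre-BII cells in 7, and never that of immature or mature cells. The lowest was that of mature B cells in 38, small pre-BII cells in 4, large pre-BII cells in 3 and immature cells in 2. In 9 genes the mean was lower at each of the 4 steps from pre-BI to mature cells: Ndufb7, Ndufs4, Ndufv2, Ndufa12, Uqcrq, Cycs, Cox5a, Atp5mpl and Atp5o. The other 13 genes lay mostly under the limit, and 5 of them (Ndufaf4, Sdhd, Cox8b, Atp5pb and Atp5d) never exceeded it. Less RNA of these genes per cell and fewer cells with much of it cannot be told apart in bulk samples.

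**Figure D1:**
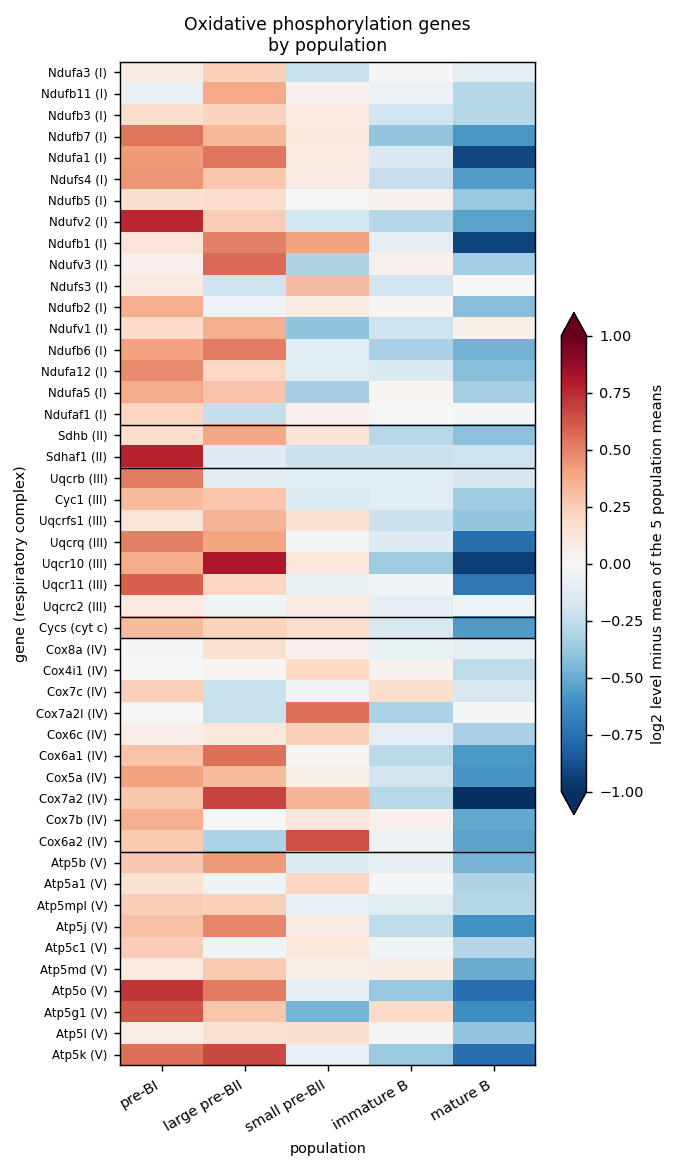
Population means of the 47 genes with a mean level above the noise limit, as log2 deviation from the mean of the 5 population means (colour), with genes in rows by complex and populations in columns. The highest mean lies in pre-BI or large pre-BII cells for most rows and the lowest in mature B cells for 38 of 47.

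Within single preparations the same order was seen with overlap between neighbouring stages. In each preparation the median was taken of the 47 genes' deviations (log2), each from the gene's mean of the 5 population means. In pre-BI cells it was -0.06 in sort 1 and 0.28 to 0.40 in the other 5, with a mean of 0.27 ± 0.16 (SD, n = 6). In large pre-BII cells it was 0.21 to 0.29, with a mean of 0.25 ± 0.04 (SD, n = 5). Small pre-BII cells ran from -0.23 in sort 1 to 0.40 in sort 8, around 0.04 ± 0.23 (SD, n = 5). Immature cells read -0.48, 0.10, 0.09, -0.16 and -0.22 in sorts 1, 2, 8, 9 and 11, a mean of -0.14 ± 0.24 (SD, n = 5). Mature cells read -0.64, -0.27, -0.50, -0.23 and -0.42 in sorts 1, 3, 8, 9 and 11, a mean of -0.41 ± 0.17 (SD, n = 5). All 5 mature preparations lay below every pre-BI and large pre-BII preparation. Small pre-BII preparations overlapped the early side, but their lowest, sort 1, only matched the highest mature one, sort 9, both at -0.23. Immature preparations overlapped the mature ones, and on the early side they reached only pre-BI sort 1. Over the 2563 genes with a mean level above the limit the same median stayed between -0.10 and 0.06 in all 26 preparations.

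**Figure D2:**
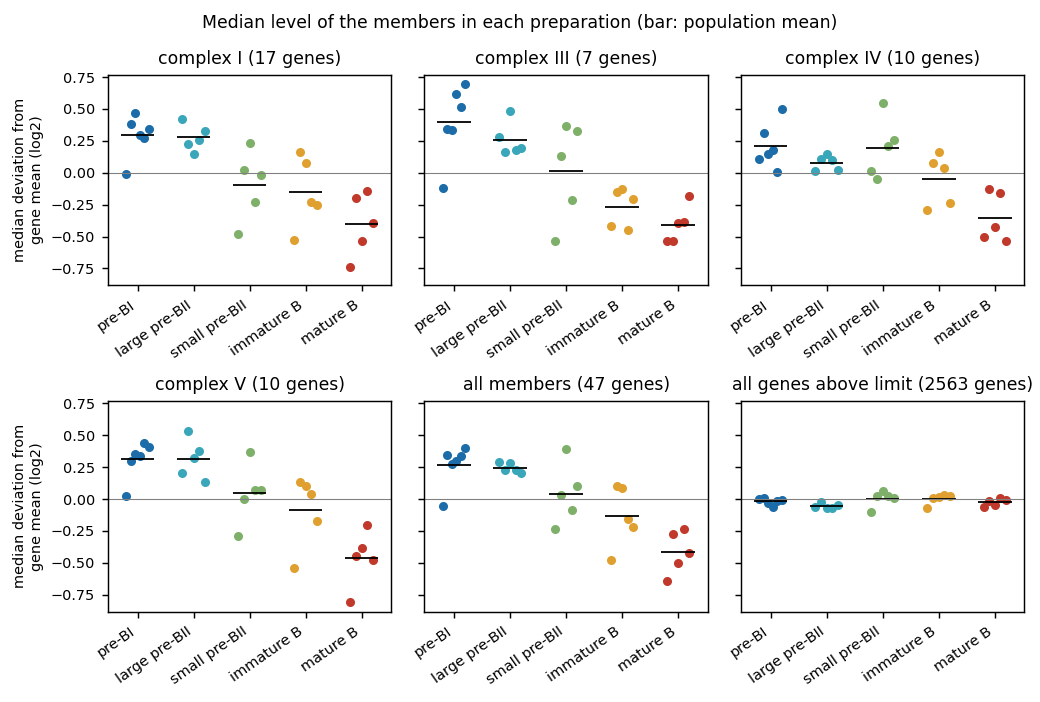
Median log2 deviation from the gene's mean of the 5 population means in each of 26 preparations, for complexes I, III, IV and V, for all 47 members and for 2563 genes above the noise limit. Points are in order of sort number within a population, and bars are population means. The 5 mature B points of all members lie between -0.64 and -0.23, while the 2563 genes stay near 0.

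By complex, the mean of these preparation medians in mature cells was -0.40 ± 0.25 for complex I (SD, n = 5), -0.41 ± 0.15 for complex III, -0.35 ± 0.19 for complex IV and -0.46 ± 0.22 for complex V. In pre-BI cells it was 0.29 ± 0.16 for complex I (SD, n = 6), 0.40 ± 0.29 for complex III, 0.21 ± 0.17 for complex IV and 0.31 ± 0.15 for complex V. By these means the complexes differed most in small pre-BII cells, where complex IV stood at 0.20 ± 0.23 and complex I at -0.10 ± 0.27 (SD, n = 5). Those ranges overlapped, from -0.05 to 0.54 and from -0.48 to 0.23. In large pre-BII cells complex IV was already the lowest of these complexes, at 0.077 ± 0.057 (SD, n = 5). Complexes I, III and V stood there at 0.276 ± 0.105, 0.260 ± 0.133 and 0.315 ± 0.156. Complex IV ran from 0.016 to 0.144, below complex I (0.147 to 0.425) and complex III (0.161 to 0.483). It overlapped complex V (0.136 to 0.535).

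The widest comparison set mature B cells against pre-BI cells, the last and the first stage. By limma with Benjamini-Hochberg adjustment over all probe sets, 18 of the 57 members that could be tested fell and none rose (31.6% lower). The background was 10.7% of 10300 probe sets called in either direction, 6.03% lower and 4.69% higher. Among the 47 brighter members 38.3% were called lower, against 13.4% of the 2563 genes with a mean level above the limit. Over all 60 members 53 were lower, 2 were higher and 5 were equal at the limit, with a median log2 difference of -0.53 against 0 over 6137 genes. All 47 brighter members were lower (Sdhaf1 through a single pre-BI value), with a median of -0.70 against 0.03 for the 2563 genes. This count was 46 or 47 under the other scalings and 42 with the values as deposited, where 4 members were called. The members that fell were 6 of 22 genes of complex I, 0 of 3 tested of complex II, 3 of 8 of complex III, Cycs, 4 of 11 tested of complex IV and 4 of 12 tested of complex V. In 9 of the 18 no mature preparation reached the lowest pre-BI preparation. The same share over all called probe sets is not given here, so this count describes the 18 alone. Within sorts 1 to 3 (3 pre-BI and 2 mature preparations) 44 of 47 were lower, with a median of -0.55, and within sorts 8 to 11 (3 and 3) 46 of 47, with a median of -0.84. The 18 log2 differences ran from -1.72 to -0.43 within sorts 1 to 3, where 2 of the 18 passed, and from -1.72 to -0.57 within sorts 8 to 11, where 10 passed. Only Cox5a passed in both. With the floor at the noise limit 17 of the 18 passed, all but Cox6a2. Folds of Ndufa1, Ndufb1, Ndufa12, Uqcr11 and Atp5k are lower bounds, since some of their mature preparations stood at the limit.

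**Figure D3:**
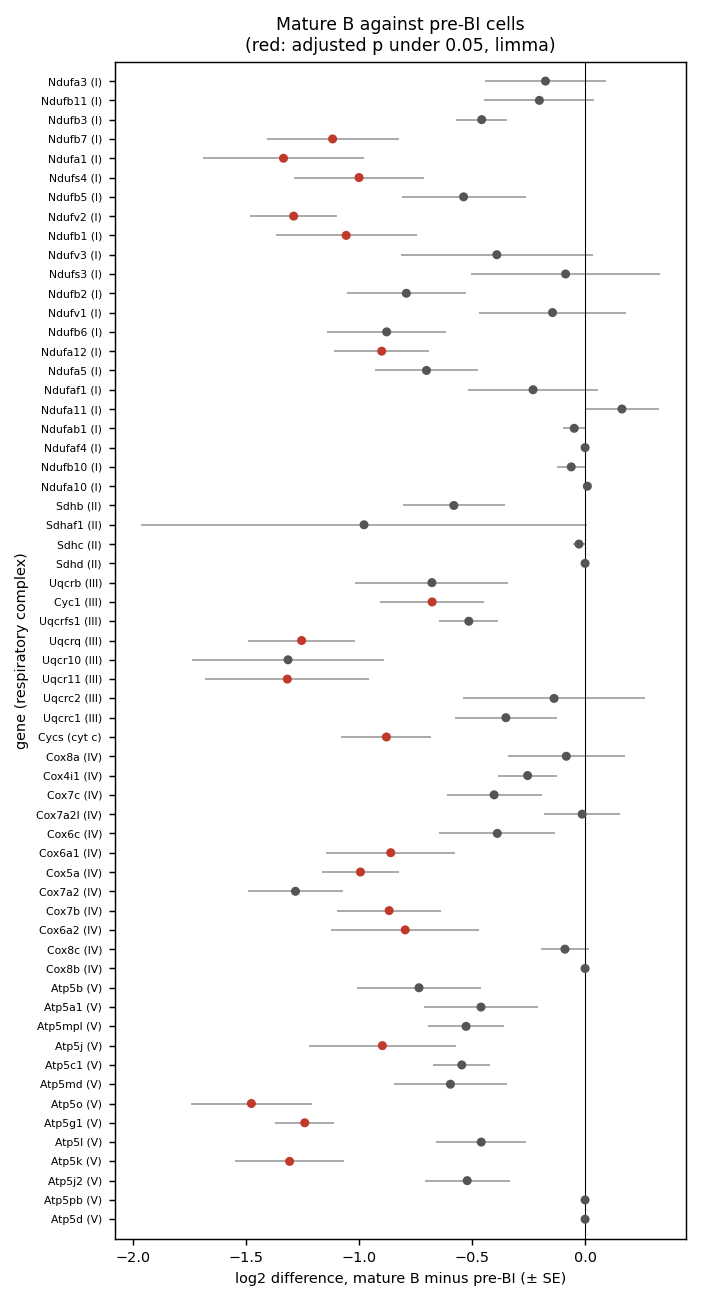
Log2 difference between mature B and pre-BI cells for all 60 members (points; bars are the SE over 5 and 6 preparations), with values raised to the noise limit and genes in rows by complex. The 18 red points passed an adjusted p of 0.05 by limma, and 53 of 60 points lie left of 0.

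Complex I takes electrons from NADH, and 6 of its 22 measured genes fell. Ndufv2, a core subunit of the NADH-binding part that holds an iron-sulfur cluster, was lowest at 1116, median 1384 and highest at 1799 in pre-BI cells, and 442, 542, 535, 865 and 524 in mature sorts 1, 3, 8, 9 and 11. Every mature preparation was below every pre-BI one, and the intermediate means descended from 973 in large pre-BII to 727 in small pre-BII and 675 in immature cells. The gene fell 2.44-fold (log2 difference -1.29 ± 0.19 SE, adjusted p = 0.000265 by limma). The other core subunits measured did not pass: Ndufs3 averaged 714 and 673 (log2 difference -0.09 ± 0.42, adjusted p = 0.83 by limma), and Ndufv1, which binds NADH, 639 and 578 (-0.14 ± 0.32, adjusted p = 0.87).

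The accessory subunits of complex I surround its core. Ndufb7 read 2244, 3175 and 5892 in pre-BI cells as lowest, median and highest, and 1326, 1478, 1659, 2615 and 1111 in mature sorts 1, 3, 8, 9 and 11. Only mature sort 9 reached into the pre-BI range, and the fall was 2.17-fold (-1.12 ± 0.29, adjusted p = 0.00255 by limma). Ndufa1, a small membrane subunit encoded on the X chromosome, read 1686 to 2297 in pre-BI cells with a median of 1992, and 766, 913, 1332, 319 and 1016 in the mature sorts in the same order. The groups did not overlap, and the gene fell at least 2.52-fold (-1.33 ± 0.36, adjusted p = 0.0344). Ndufs4, an accessory subunit on the matrix arm, read 944 to 2878 with a median of 1746 in pre-BI cells and 1339, 796, 624, 831 and 989 in mature cells. Here pre-BI sort 2 and mature sorts 1 and 11 overlapped, and the fall was 2.00-fold (-0.999 ± 0.289, adjusted p = 0.00759).

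Ndufa12, another accessory subunit, exceeded the limit in all 6 pre-BI preparations, from 337 to 911 with a median of 615, and in 1 of 5 mature preparations, at 340 in sort 3. It fell at least 1.87-fold (-0.90 ± 0.21, adjusted p = 0.00977 by limma). Ndufb1, seen by a probe set that copies of one sequence family may share, read 416 to 1189 with a median of 904 in pre-BI cells and 251, 340, 496, 396 and 624 in mature cells. It fell at least 2.08-fold (-1.06 ± 0.31, adjusted p = 0.0393), with overlap at pre-BI sort 1, its lowest. The call of Ndufb1 was lost without any one of pre-BI sorts 2, 3, 8, 9 or 10 or mature sorts 1, 3 or 9 (adjusted p up to 0.154, without mature sort 1), and that of Ndufa1 without any one of pre-BI sorts 1, 2, 3, 8 or 10 (up to 0.0576, without sort 3). The 3 brightest genes of the complex, Ndufa3, Ndufb11 and Ndufb3, did not pass. Ndufa3 averaged 5800 in pre-BI and 5136 in mature cells (-0.18 ± 0.27), Ndufb11 4415 and 3838 (-0.20 ± 0.24), and Ndufb3 4442 and 3237 (-0.46 ± 0.11, adjusted p = 0.0754), the last without overlap of its preparations.

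Complex II, succinate dehydrogenase, was thinly measured and no gene of it was called in any comparison. Sdhb, its iron-sulfur subunit, had means of 1032 (pre-BI) and 1201 (large pre-BII), and of 690 in mature cells, where the sorts read 861, 1027, 486, 573 and 636 (mature against pre-BI -0.58 ± 0.23, adjusted p = 0.29 by limma). Sdhaf1, an assembly factor of the complex, counts among the 47 brighter genes through a single value of 15260 in pre-BI sort 8. It was at or under the limit in all other preparations but large pre-BII sort 9, at 344, and mature sort 9, at 260. Sdhc, a membrane anchor subunit, exceeded the limit only in pre-BI sort 8, at 281, and Sdhd, the other anchor, in none.

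Complex III hands electrons from ubiquinol to cytochrome c, and 3 of its 8 genes fell. Uqcrq, a small subunit of the complex, read 1019 to 2132 with a median of 1764 in pre-BI cells, and 677, 509, 532, 935 and 856 in mature sorts 1, 3, 8, 9 and 11. No mature preparation reached the pre-BI range, and the fall was 2.38-fold (-1.25 ± 0.24, adjusted p = 0.000425 by limma). Uqcr11, another small subunit, read 516 to 1947 with a median of 950 in pre-BI cells and 251, 502, 463, 463 and 251 in mature cells. It too showed no overlap and fell at least 2.49-fold (-1.32 ± 0.36, adjusted p = 0.00617). Cyc1, the cytochrome c1 that carries the haem facing cytochrome c, read 2043 to 3397 with a median of 2496 and then 1918, 2007, 1266, 1113 and 2075. Its mature sort 11 overlapped the lowest pre-BI preparation, and it fell 1.60-fold (-0.68 ± 0.23, adjusted p = 0.0432). The call of Cyc1 was lost without any one of pre-BI sorts 1, 3, 9 or 10 or mature sorts 8 or 9 (adjusted p up to 0.169, without mature sort 9).

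The remaining genes of complex III were lower without passing. Uqcr10 had the widest range of population means in the complex, from 1241 in large pre-BII to 369 in mature cells. Its mature sorts read 251, 369, 400, 367 and 501 and its pre-BI preparations 251 to 1576 (-1.31 ± 0.42, adjusted p = 0.109 by limma). Pre-BI sort 1, at the limit, was the only pre-BI preparation inside the mature range. Uqcrb, the brightest gene of the complex, averaged 3048 in pre-BI and 1906 to 1984 in the other 4 populations. Its pre-BI values of 5024 in sort 8 and 6449 in sort 9 stood above all others (mature against pre-BI -0.68 ± 0.34, adjusted p = 0.112). Uqcrfs1, the Rieske iron-sulfur protein, averaged 1874 in pre-BI and 1313 in mature cells without overlap (-0.51 ± 0.13, adjusted p = 0.23).

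Cytochrome c carries electrons from complex III to complex IV and also takes part in apoptosis once released from mitochondria. Cycs read 1124 to 1973 with a median of 1226 in pre-BI cells and 602, 545, 722, 759 and 1033 in mature sorts 1, 3, 8, 9 and 11. All mature preparations lay below all pre-BI ones, and the gene fell 1.84-fold (-0.88 ± 0.20, adjusted p = 0.0346 by limma). A second probe set of Cycs, of the kind that copies of a family may share, fell at least 2.57-fold from 891 to 347 (-1.36 ± 0.19, adjusted p = 9.16e-05 by limma). That p-value belongs to a fit difference of -2.155, which takes in values under the noise limit. The call of this probe set was not checked with the floor at that limit. The call of the brighter probe set was lost without pre-BI sort 10 or any one of mature sorts 1, 3, 8 or 9 (adjusted p up to 0.0996, without mature sort 3).

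**Figure D4:**
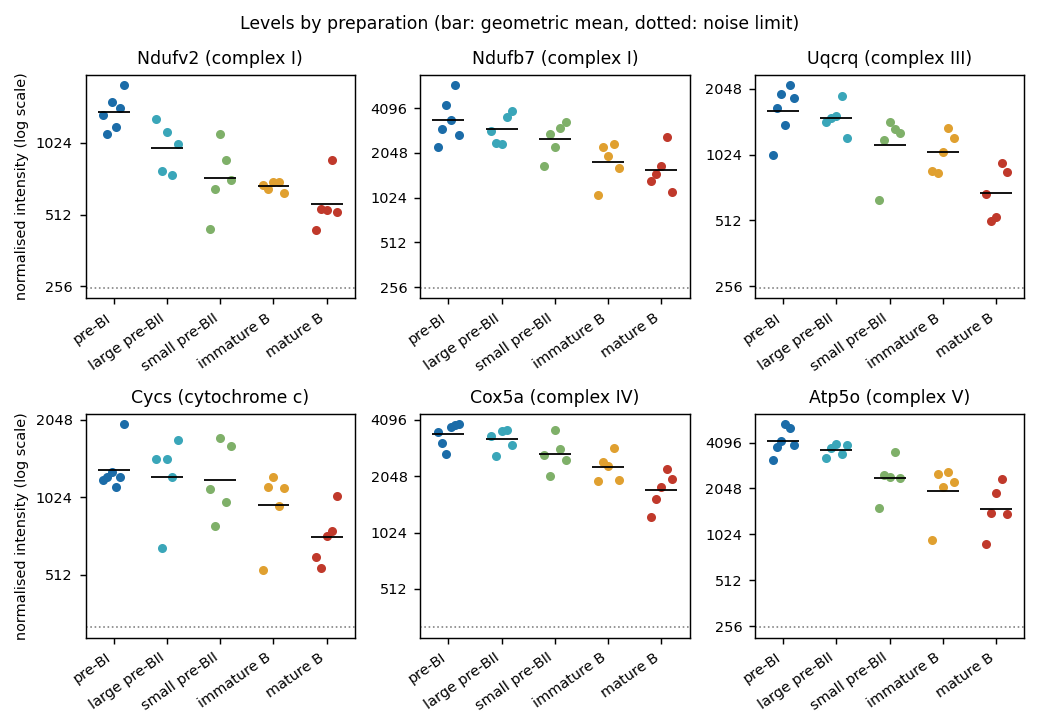
Normalised intensity (log scale) of Ndufv2, Ndufb7, Uqcrq, Cycs, Cox5a and Atp5o in each preparation (points), with the geometric mean of each population (bar) and the noise limit (dotted). For each of these genes the population means descend at every step, and in all but Ndufb7 every mature point lies below every pre-BI point.

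Complex IV reduces oxygen with electrons from cytochrome c, and 4 of its 11 tested genes fell from pre-BI to mature cells. Cox5a, a subunit next to the catalytic core, read 2690 to 3890 with a median of 3635 in pre-BI cells, and 1241, 1546, 1799, 2234 and 1973 in mature sorts 1, 3, 8, 9 and 11. The groups did not overlap, and the means between them were 3221, 2689 and 2282 in large pre-BII, small pre-BII and immature cells. The gene fell 1.99-fold (-0.99 ± 0.17, adjusted p = 0.000153 by limma). Cox6a1, the form of subunit VIa found in most tissues, read 1654 to 4140 with a median of 3581 in pre-BI cells and 1880, 2805, 1762, 1207 and 1420 in mature cells. Its pre-BI sort 8 lay within the mature range, and it fell 1.81-fold (-0.86 ± 0.29, adjusted p = 0.0191). Cox5a and Cox6a1 were both read by probe sets that copies of a family may share. Cox7b, a small membrane subunit, read 758 to 1135 with a median of 1062 and then 583, 367, 611, 827 and 418. Only mature sort 9 reached the pre-BI range, and Cox7b fell 1.82-fold (-0.87 ± 0.23, adjusted p = 0.0428). A second, dim probe set of Cox7b averaged 261 in pre-BI and, at the limit, 251 in mature cells (-0.05 ± 0.05), without passing. The call of Cox6a1 was lost without any one of pre-BI sort 3 or mature sorts 9 or 11 (adjusted p up to 0.0809, without mature sort 9), and that of Cox7b without any one of pre-BI sorts 3, 8, 9 or 10 or mature sorts 1, 3, 8 or 11 (up to 0.142, without mature sort 3).

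The brightest genes of complex IV did not pass in any comparison. Cox8a, the common form of subunit VIII, had means of 14200, 15990, 14780, 13650 and 13410 from pre-BI through to mature cells (mature against pre-BI -0.08 ± 0.26, adjusted p = 0.919 by limma). Its preparations ran from 8745 to 18660 in pre-BI and from 9218 to 18660 in mature cells, so the groups overlapped over nearly their whole range. Cox4i1, the form of subunit IV found in most tissues, averaged 3812 and 3197 (-0.25 ± 0.13, adjusted p = 0.447), and Cox7c, a small membrane subunit, 4149 and 3140 (-0.40 ± 0.21, adjusted p = 0.241). Cox7a2, the common form of subunit VIIa, varied over the 5 populations by the F test (adjusted p = 0.0375) with the widest range of complex IV, from 1463 in large pre-BII to 456 in mature cells. Its mature sorts read 493, 457, 529, 319 and 519 against 789 to 1796 in pre-BI cells, without overlap, but the comparison did not pass (-1.28 ± 0.21, adjusted p = 0.0716). Cox4i1, Cox7c and Cox7a2 were read by probe sets that copies of a family may share.

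In 7 of the 47 genes small pre-BII cells had the highest mean: Ndufs3, Cox4i1, Cox6c, Cox7a2l, Cox6a2, Atp5a1 and Atp5l. Of these only Cox7a2l and Cox6a2 passed the F test over the populations. Cox7a2l, which encodes a relative of subunit VIIa known for joining complexes III and IV into supercomplexes, was highest in small pre-BII cells. It read 2331, 3490, 2765, 2458 and 3005 in large pre-BII sorts 1, 2, 8, 9 and 10, and 3148, 5696, 5031, 4990 and 5407 in small pre-BII sorts 1, 3, 8, 9 and 10. In immature sorts 1, 2, 8, 9 and 11 it read 2900, 1985, 2826, 2663 and 2745. Of the small pre-BII preparations only sort 1 fell within the large pre-BII range, and all 5 lay above every immature one. The gene rose 1.71-fold into small pre-BII cells (0.78 ± 0.19, adjusted p = 0.00977 by limma) and fell 1.83-fold into immature cells (-0.87 ± 0.18, adjusted p = 0.00687). Mature and pre-BI cells averaged 3224 and 3254 (-0.01 ± 0.17, adjusted p = 0.989). Both calls held within sorts 8 to 11 (0.91 and -0.91), and within sorts 1 to 3 the differences were 0.57 and -0.82 without passing. Neither call held with 75th percentile scaling (0.49 and -0.82, adjusted p = 0.308 and 0.0545 by limma) or with the values as deposited (adjusted p = 0.671 and 0.277). A second Cox7a2l probe set of the b set, 3888 in small pre-BII cells on average, showed the same directions without passing. Both Cox7a2l probe sets are of the kind that copies of a family may share.

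Cox6a2 is the form of subunit VIa known from heart and skeletal muscle. By its first-set probe set it exceeded the limit in 5 of 6 pre-BI preparations, up to 1142 in sort 10, and in all 5 of small pre-BII cells, from 306 to 1097. It exceeded it in 2 of 5 large pre-BII and 4 of 5 immature preparations, and in none of the mature ones, so that mature cells were at least 1.74-fold lower than pre-BI cells (-0.80 ± 0.33, adjusted p = 0.0236 by limma). The b-set probe set read 319 to 1149 in pre-BI cells and stood at its limit in all 5 large pre-BII and all 5 mature preparations. By it mature cells were at least 1.83-fold lower than pre-BI cells (adjusted p = 2.27e-06 by limma, and 0.0219 with the floor at the noise limit). Against immature cells, at 383, the call (adjusted p = 0.00223) rested on differences under the noise limit and ended with the floor there (adjusted p = 0.861). Both are probe sets that copies of a family may share. The call of the first-set probe set was lost without any one of pre-BI sorts 2 or 10 or mature sorts 8, 9 or 11 (adjusted p up to 0.0862, without pre-BI sort 10), and with the replicate block, a floor at the noise limit (adjusted p = 0.0777) or one at the 25th percentile. The other tissue-restricted forms were near or under the limit: Cox8b in every preparation, and Cox8c exceeded it in 7 of 26, at 359 at most.

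**Figure D5:**
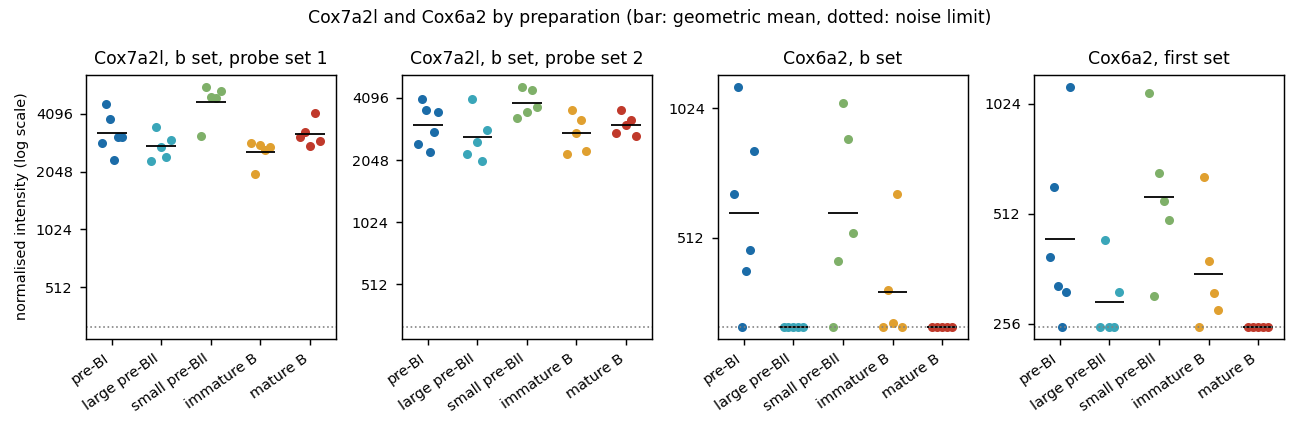
Normalised intensity (log scale) of both probe sets of Cox7a2l and of Cox6a2 in each preparation (points), with the geometric mean of each population (bar) and the noise limit (dotted). Cox7a2l is highest in small pre-BII cells by both probe sets, and Cox6a2 lies at the limit in all 5 mature preparations by both.

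Complex V makes ATP, and 4 of its 12 tested genes fell. Atp5o encodes the subunit that joins the catalytic head to the stalk and confers sensitivity to oligomycin. On values raised to the noise limit, where some differences are lower bounds, Atp5o had the largest difference of all members. It read 3153 to 5419 with a median of 4061 in pre-BI cells, and 889, 1413, 1912, 2358 and 1390 in mature sorts 1, 3, 8, 9 and 11. No mature preparation reached the pre-BI range, and the means between were 3678, 2404 and 1974 in large pre-BII, small pre-BII and immature cells. The gene fell 2.78-fold (-1.48 ± 0.27, adjusted p = 5.84e-05 by limma).

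Atp5k, a small membrane subunit, read 563 to 1177 with a median of 688 in pre-BI cells and 251, 417, 344, 251 and 336 in mature cells, and fell at least 2.47-fold without overlap (-1.31 ± 0.24, adjusted p = 0.00192 by limma). Atp5g1, one of the genes for subunit c of the rotating ring, read 858 to 1239 with a median of 1049 and then 525, 362, 458, 414 and 461, and fell 2.36-fold without overlap (-1.24 ± 0.13, adjusted p = 0.00143). Its means did not descend evenly: small pre-BII cells stood at 490 and immature cells at 772, with 1327 and 1211 in immature sorts 1 and 2 and 494 to 609 in the other 3. The probe set of Atp5g1 is one that copies of a family may share. Atp5j, coupling factor 6 of the stalk, read 2754 to 7185 with a median of 5812 and then 2084, 3836, 4065, 1991 and 2218. It fell 1.86-fold with overlap (-0.90 ± 0.33, adjusted p = 0.0185). The call of Atp5j was lost without any one of pre-BI sorts 2, 3 or 9 or mature sorts 1, 9 or 11 (adjusted p up to 0.0702, without mature sort 9).

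The subunits of the catalytic head were lower without passing. Atp5b, the catalytic beta subunit, averaged 8604 in pre-BI and 5174 in mature cells, with 3581, 4653, 7043, 6309 and 5009 in the mature sorts and 5941 to 13760 in pre-BI cells (-0.73 ± 0.27, adjusted p = 0.0561 by limma). Atp5a1, the alpha subunit, averaged 7466 and 5428 (-0.46 ± 0.25, adjusted p = 0.209). Atp5c1, the gamma subunit of the central stalk, averaged 4294 and 2943 without overlap (-0.55 ± 0.13, adjusted p = 0.0762). Atp5mpl, a small membrane subunit, averaged 7822 and 5433 (-0.53 ± 0.17, adjusted p = 0.0613).

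Between neighbouring stages few members passed. From pre-BI to large pre-BII cells 0 of 57 passed by limma, where 1.87% of all probe sets were called. At an unadjusted p under 0.05 there were 5 of 57, beside 989 of all 10300 probe sets. The median of the 47 brighter genes was -0.04, and it was positive under 3 of 11 alternatives and without pre-BI sort 8 (0.023) or 10 (0.015). From large to small pre-BII cells only Cox7a2l passed, where 5.34% of all probe sets were called. At an unadjusted p under 0.05 there were 10 of 57, beside 1553 of 10300 probe sets. Of the 47, 33 were lower with a median of -0.23, which was -0.35 without small pre-BII sort 8 and -0.12 without sort 9. In this step the median of complex IV was 0.11 over 10 genes, and those of complexes I, III and V were -0.33, -0.29 and -0.37. From small pre-BII to immature cells only Cox7a2l passed, where 2.13% were called. At an unadjusted p under 0.05 there were 3 of 57, beside 984 of 10300 probe sets, and 35 of 47 were lower with a median of -0.15. That median was -0.26 without small pre-BII sort 1, -0.07 without its sort 8 and -0.07 without immature sort 1, and -0.05 within sorts 1 to 3 (26 of 47 lower) and -0.26 within sorts 8 to 11 (37 of 47). From immature to mature cells 0 of 57 passed, where 1.32% were called. At an unadjusted p under 0.05 there were 8 of 57, beside 794 of 10300 probe sets, and 42 of 47 were lower with a median of -0.31. Within sorts 1 to 3 and 8 to 11 the medians were 0.02 and -0.15 for the first step, -0.27 and -0.17 for the second and -0.29 and -0.32 for the last. The F test over the 5 populations called 14 of 57 members (24.6%) where it called 14.5% of all probe sets. All 14 were among the 47 brighter members (29.8%), a share close to the 31.4% of the 2563 genes above the limit. They were Ndufb7, Ndufs4, Ndufv2, Ndufb1, Uqcrq, Cox7a2l, Cox6a1, Cox5a, Cox7a2, Cox6a2, Atp5j, Atp5o, Atp5g1 and Atp5k. Of these, Atp5j lost the call without mature sort 1, 9 or 11 (adjusted p up to 0.0606 by limma) and Ndufb1 without mature sort 1, 3 or 9 (up to 0.119). Ndufs4 lost it without pre-BI sort 1, 3, 9 or 10, large pre-BII sort 1, immature sort 8 or mature sort 3, 8, 9 or 11 (up to 0.102). Cox7a2 lost it without pre-BI sort 10, large pre-BII sort 1 or 10, small pre-BII sort 3, 8 or 10, or any mature preparation (up to 0.0916).

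Other mitochondrial genes were read from lists of genes, beside 14.0% of 5041 tested genes called in either direction between mature and pre-BI cells. The shares called of the citric acid cycle (11.1%), ribosome (12.9%), import (10.5%), regulator (10.0%) and assembly factor lists (16.7%) lay near that background. Of 8 carriers and porins 4 fell from pre-BI to mature cells and none rose, with a median of -0.70: Slc25a5, an ADP/ATP carrier, fell 1.66-fold (-0.74 ± 0.21, adjusted p = 0.00758 by limma), Vdac1, a porin of the outer membrane, 2.01-fold (-1.01 ± 0.24, adjusted p = 0.00436), and Slc25a1, the citrate carrier, and Vdac3 fell as well. Of 9 genes of the citric acid cycle and pyruvate dehydrogenase 1 fell, Idh2, the mitochondrial NADP-dependent isocitrate dehydrogenase. Its means were 1890 (pre-BI), 2284 (small pre-BII), 501 (immature) and 365 (mature), a 5.18-fold fall from pre-BI (-2.37 ± 0.26, adjusted p = 7.33e-07) and a 4.56-fold fall from small pre-BII to immature cells (-2.19 ± 0.41, adjusted p = 5.17e-05). Of 31 genes of the mitochondrial ribosome 4 fell, with a median of -0.10, among them Mrpl18, at least 2.60-fold. Of 19 import and chaperone genes 2 fell, Hspd1, the chaperone Hsp60, 2.08-fold, and Timm8a1, at least 2.35-fold, with a median of -0.36. Of 12 assembly factors Cox17 and Uqcc2 passed, both close to the noise limit, where Cox17 did not pass with the floor at that limit (adjusted p = 0.744 by limma) and Uqcc2 was too dim to be tested. Of 10 regulators 1 rose, Polg2, the accessory subunit of the mitochondrial DNA polymerase, from 256, close to the limit, to 529 (at least 2.07-fold, adjusted p = 0.00738 by limma), and of 4 antioxidant genes none passed.

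Genes of the G2 phase and mitosis followed another order over the stages. Of 19 such genes 5 rose from pre-BI to large pre-BII cells (median 1.01), all 19 fell from large to small pre-BII cells (median -2.84), 4 fell from small pre-BII to immature cells (median -0.15), and none passed from immature to mature cells (median 0). From pre-BI to mature cells 17 of 19 fell, with a median of -2.17, alongside the 18 members. The part of cell division in the members' difference was not tested.

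Markers of other cell types were read in the same comparison, mature against pre-BI cells. Of the sums given here, only that of T and NK cell markers had ranges without overlap. The summed level of 14 granulocyte and monocyte markers was 5943 to 19630 with a median of 11690 in pre-BI cells and 7660 to 11100 with a median of 8458 in mature cells, and its lowest median was 4325, in small pre-BII cells. Of these, Lyz2 averaged 5299 in pre-BI and 3670 in mature cells, Ngp 3761 and 3187, and S100a9 751 and 650, each above the limit in all of those preparations. S100a8 averaged 730 and 515 and Camp 477 and, at the limit, 319, while Cd14 averaged 383 and 442. Prtn3 exceeded the limit in all 5 mature and in no pre-BI preparation. Mpo, Csf1r, Csf3r, Ltf, Ctsg, Adgre1 and Elane were under it in both. The sum of 7 T and NK cell markers was 836 to 2416 in pre-BI cells, all of it Gzma, and 0 to 450 in mature cells, and Cd3d and Cd3g were under the limit in both. The sum of 6 erythroid markers had a median of 13350 in both, with ranges of 7380 to 16020 and 11420 to 16630. Hba-a1 averaged 10200 in pre-BI and 11100 in mature cells, Alas2 434 and 636, Car1 399.5 and 460.7, Klf1 346 and 405, and Car2 1419 and 1218. Epb42 was under the limit in both. The sum of 4 plasma cell markers was 0 to 652 in pre-BI and 0 to 738 in mature cells. The part of these cells in the members' difference was not tested.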

How the data were processed

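Both tables hold intensities on a linear scale, with negative values, as computed and deposited by the authors, 1 value per probe set and array. Their scanning, summary and scaling are not stated: software and steps were not given in the sources used here. Each table was quantile-normalised between arrays without its 55 control probe sets, its 40th percentile was set as the lowest value, and values were put on the log2 scale. Second arrays of a preparation were averaged, except the identical one. Probe sets above the floor in at least 5 of 26 preparations (10300) were fitted per table in limma 3.58.1 (R 4.3.3; lmFit, eBayes with trend), with Benjamini-Hochberg adjustment over both tables and a threshold of 0.05. Folds use values raised to the noise limit (2 robust SDs from the negative values). The script was checked on simulated data.

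Of 13069 probe sets 7542 had 1 symbol and 224 several, in an annotation that can be old. In all, 14 members are read by f probe sets, which near-identical genes may share. They are Ndufb1, Ndufab1, Sdhb, Cox4i1, Cox7c, Cox7a2l, Cox6a1, Cox5a, Cox7a2, Cox6a2, Cox8b, Atp5a1, Atp5g1 and Atp5j2. Genes were named if they passed a test, were among the 3 brightest of their complex, had its widest range or were tissue-restricted isoforms or their partners; of other lists, up to 2 passing genes were named per comparison, with a few more named by symbol alone. Members and lists were chosen with earlier results of these data known. Promoter sequences are from RefSeq. Sort numbers were taken to pair populations where every correlation of deviations exceeded 0.1: large pre-BII with pre-BI (0.114 to 0.296), immature with small pre-BII (0.137 to 0.25) and mature with immature cells (0.118 to 0.206). The pairing rests on the labels' sort numbers, which are not said to mark a shared day or animals.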

Additional observations from a re-analysis of the deposited data

Results flagged for a closer look

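In 14 of 147 groups of 5 or 6 preparations, 1 preparation lay far from the others of its population. Each group is a named member in a population where all its values exceeded the noise limit. Chance alone gives about 1 in 20 groups, but these groups share the same 26 preparations and are not independent of each other.

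Sort 1 was low in 7 of these groups. Ndufa3 read 2850 in pre-BI sort 1 against 6003 to 7185 in the others, and 3281 in mature B sort 1 against 5224 to 6141. Ndufb1 read 415.5 in pre-BI sort 1 against 833.9 to 1189. Uqcrfs1 read 744.7 in small pre-BII sort 1 against 2109 to 2789, Uqcrq 636.5 against 1187 to 1447, and Cox7a2l 3148 against 4990 to 5696. In immature sort 1 Atp5o read 940.1 against 2091 to 2639. Small pre-BII sort 9 was low for Ndufa1 (638.9 against 1673 to 2168), Sdhb (444.4 against 1161 to 1355) and Cox7a2 (489.3 against 1321 to 1686). Sort 2 was low for Ndufb1 in large pre-BII cells (480.4 against 1069 to 1438) and for Cox7a2l in immature cells (1985 against 2663 to 2900). Values stood high in Uqcrb in small pre-BII sort 8 (3351 against 1571 to 1851) and Cycs in pre-BI sort 10 (1973 against 1124 to 1279).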

How the results depend on the processing

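Against 18 members called lower in mature than pre-BI cells, 16 to 25 were called under the other scalings, the noise-limit floor (25, with 17 of the 18), no filter, a batch block, the replicate block (22, with 17 of the 18) or without second arrays, and 13 with the floor at the 25th percentile. There were 12 within sorts 8 to 11 (10 of the 18), 4 with the values as deposited (3 of the 18) and 3 within sorts 1 to 3 (2 of the 18). Leaving out 1 preparation gave 12 to 19. The 14 calls of the F test became 3 with the values as deposited, 0 within sorts 1 to 3 and 6 within sorts 8 to 11, and 11 to 16 without 1 preparation. The single call from large to small pre-BII cells became 0 with 75th percentile scaling, 0 with the values as deposited, 0 within sorts 1 to 3 and 3 with the replicate block, and 1 to 2 without 1 preparation (2 without pre-BI sort 10, large pre-BII sort 2 or small pre-BII sort 3). The single call from small pre-BII to immature cells became 0 with 75th percentile scaling, with the values as deposited and within sorts 1 to 3. With every probe set of a member, 1 was called from immature to mature cells, Cox6a2, through differences under the noise limit. The cause of these changes was not tested, though the fits within sorts hold fewer preparations. In the paired comparisons the replicate block changed no count. Sort numbers were not taken to pair small with large pre-BII cells (correlations 0.00381 to 0.245) or mature with pre-BI cells (0.0589 to 0.24). The median over all probe sets from large to small pre-BII cells was 0.06, and 0.15 with trimmed-mean scaling. The median of the 47 genes, mature against pre-BI, stayed between -0.84 and -0.51 under all 11 alternatives. Signal over background limits the reading: 31 of 60 members exceeded the noise limit in every preparation, and 13 had a mean level under it.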
